A study of Homo sapiens with 16 samples.

Results

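The expression of 10 genes that carry gemcitabine into the cell, activate or inactivate it, or form the enzyme it inhibits was followed across 16 RNA-seq libraries. The genes were chosen by name among 63501 gene identifiers present in both the FPKM and the count table. They are the nucleoside transporters SLC29A1, SLC29A2 and SLC28A3, the salvage and deaminating enzymes DCK, CDA, DCTD and CMPK1, and the ribonucleotide reductase subunits RRM1, RRM2 and RRM2B. All 10 were found in both tables. A filter on low counts left 8 of the 10 for testing in MiaPaCa2 cells and 9 of the 10 in PANC1 cells. SLC28A3 passed in neither line and CDA only in PANC1.

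MiaPaCa2 and PANC1 are established human pancreatic cancer cell lines. Each line was kept as a control or treated for 24 h with 40 nM gemcitabine, 50 µM genistein or both drugs. Genistein, a soy isoflavone, was prepared in DMSO, and whether the controls received this solvent is not given in the sources used here. Each of the 8 groups held 2 libraries, labelled as biological replicates of 1 line each, so that differences between the lines are differences between 2 cell stocks. Poly-A RNA was sequenced as single short reads, and the libraries held 13101557 to 22254419 counted reads in MiaPaCa2 and 12943482 to 31991860 in PANC1.

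Gemcitabine is a deoxycytidine analogue that enters cells mainly through the equilibrative transporters encoded by SLC29A1 and SLC29A2, and where present the concentrative transporter encoded by SLC28A3. Deoxycytidine kinase (DCK) adds the first phosphate and the UMP/CMP kinase CMPK1 the next, while cytidine deaminase (CDA) and, after phosphorylation, dCMP deaminase (DCTD) inactivate the drug. The diphosphate inhibits ribonucleotide reductase, which makes deoxynucleotides from ribonucleotides and consists of the large subunit RRM1 with the small subunit RRM2, the S-phase form, or RRM2B, a small subunit known as a p53 target.

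Both lines had the epithelial keratins KRT8 (369 to 1076 FPKM) and KRT18 (373 to 742 FPKM) together with the mesenchymal filament gene VIM (1398 to 3875 FPKM). The keratin KRT19 was at 56.5 to 204 FPKM in MiaPaCa2 and 282 to 749 in PANC1. KRT7 was near absent in MiaPaCa2 (0.17 to 1.70 FPKM, 1 to 9 reads) and at 3.95 to 21.1 FPKM in PANC1. The mesenchymal gene ZEB1 was low in both, at 1.82 to 4.11 FPKM in MiaPaCa2 and 2.23 to 5.15 in PANC1. The epithelial adhesion gene EPCAM had 0 reads in every MiaPaCa2 library and 7.71 to 12.8 FPKM in PANC1. Of 8 markers of leukocytes, endothelium, acinar, islet and stromal cells, 7 summed to 0 reads in each MiaPaCa2 library and to at most 1 read in each PANC1 library. The eighth, the collagen gene COL1A1, reached 99.7 FPKM in PANC1. Every pair of replicates differed by more than sampling noise, with a chi-square per degree of freedom of 2.7 to 32.03. The slope of expression on gene GC content, in log2 units per 10 percentage points, was -0.243 and -0.147 in the MiaPaCa2 controls and 0.151 and 0.058 after gemcitabine. It was -0.005 and -0.162 with genistein and 0.049 and 0.298 with both drugs. In MiaPaCa2 the slope thus went with gemcitabine, and a GC bias and a drug effect cannot be told apart there, with or without a correction. In PANC1 the slope differed between replicates, with 0.3 and -0.074 in the controls. Member results that lose their call after a correction for GC content are named below. Genes of the related lists are given uncorrected only.

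RRM2 and RRM1 were the members whose increase with gemcitabine passed the test in both lines. RRM2, on chromosome 2 (GRCh37, 10260825 to 10351851, plus strand), and RRM1, on chromosome 11 (4115937 to 4160162, plus strand), are shown by their promoters because both rose with gemcitabine in both lines, as is DCK, on chromosome 4 (71858255 to 71896631, plus strand), whose gemcitabine libraries lay above the controls in both lines. The sequences are from RefSeq (GRCh38.p14) and run 5′ to 3′ from 250 bases before to 50 bases after an annotated gene start. They cover chr2:10122489-10122788, chr11:4094435-4094734 and chr4:70993399-70993698, all on the plus strand. Capitals mark matches, on either strand, to the CCAAT box (CCAAT), the cell-cycle homology element (TTTGAA) or an E2F word (TTTCGCGC, TTTGGCGC, TTTCCCGC or TTTGCCGC).

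RRM2 promoter: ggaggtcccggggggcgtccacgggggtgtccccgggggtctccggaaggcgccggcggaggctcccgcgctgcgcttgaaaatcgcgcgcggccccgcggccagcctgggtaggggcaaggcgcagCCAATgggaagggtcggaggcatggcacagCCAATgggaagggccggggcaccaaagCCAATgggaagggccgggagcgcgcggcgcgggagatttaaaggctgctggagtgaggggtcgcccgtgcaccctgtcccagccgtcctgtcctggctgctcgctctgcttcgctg
RRM1 promoter: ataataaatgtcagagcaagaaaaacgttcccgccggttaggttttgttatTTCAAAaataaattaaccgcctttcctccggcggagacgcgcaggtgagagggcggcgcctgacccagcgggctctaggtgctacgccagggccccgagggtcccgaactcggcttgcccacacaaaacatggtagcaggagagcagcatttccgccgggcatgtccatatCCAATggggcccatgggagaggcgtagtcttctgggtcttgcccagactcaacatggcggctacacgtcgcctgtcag
DCK promoter: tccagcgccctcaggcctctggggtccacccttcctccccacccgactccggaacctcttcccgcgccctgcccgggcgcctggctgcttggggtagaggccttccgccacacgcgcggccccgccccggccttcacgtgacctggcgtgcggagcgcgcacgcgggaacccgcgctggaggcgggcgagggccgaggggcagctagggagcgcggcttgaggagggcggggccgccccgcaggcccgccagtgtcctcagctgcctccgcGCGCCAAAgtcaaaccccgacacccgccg

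The RRM2 window shown held 3 CCAAT boxes, which start at positions -123, -93 and -66 from its gene start. Another annotated start of RRM2 has the window chr2:10122318-10122617, which is not shown. That window held 1 CCAAT box, at -249 from its own start. The RRM1 window held 1 CCAAT box at -28 and 1 match to the cell-cycle homology element at -199, read on the minus strand. The DCK window held 1 E2F word at position 21 after the start. Of 35116 promoters of the same length, 34.6% held a CCAAT box, 15.2% the cell-cycle homology element and 3.31% an E2F word. These matches describe letters and were not tested for binding.

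Values per library are given as CPM, the reads of a gene scaled to the depth of its library with TMM factors, replicate 1 first. A gene was called changed when its adjusted p (limma-voom, Benjamini-Hochberg over all genes tested) was 0.05 or lower, its log2 fold change reached 0.4 in either direction and its treated group averaged above 1 FPKM. SE is the standard error of the log2 fold change from that fit.

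In MiaPaCa2 cells RRM2 stood at 549 and 536 CPM in the controls, 864 and 928 with gemcitabine, 803 and 776 with genistein and 1153 and 1119 with both drugs. All treated libraries lay above both controls, and the libraries with both drugs lay above all others. RRM2 rose with gemcitabine by a log2 fold change of 0.67 ± 0.07 (SE; limma adjusted p = 2.66e-05), with genistein by 0.53 ± 0.07 (adjusted p = 0.00136) and with both drugs by 1.01 ± 0.07 (adjusted p = 4.56e-07). From gemcitabine alone to both drugs the difference of 0.34 ± 0.07 had an adjusted p of 0.012 but stayed under the fold threshold. From genistein alone to both drugs RRM2 rose by 0.48 ± 0.07.

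In the PANC1 controls RRM2 stood at 547 and 554 CPM. It stood at 937 and 1027 CPM with gemcitabine, 483 and 504 with genistein and 809 and 825 with both drugs. Both genistein libraries lay below both controls, and the libraries with both drugs lay between the controls and gemcitabine. RRM2 rose with gemcitabine by 0.88 ± 0.08 (SE; limma adjusted p = 0.00157), with both drugs by 0.59 ± 0.08 against the control and by 0.71 ± 0.08 against genistein, where the call was lost without either genistein library (adjusted p = 0.0983 and 0.0932). The genistein difference of -0.12 ± 0.08 did not pass (adjusted p = 0.469). The change of RRM2 with genistein differed between the lines by -0.70 ± 0.10 (PANC1 minus MiaPaCa2; limma adjusted p = 0.0279), and this call was lost when any 1 of 6 libraries was left out, with adjusted p of 0.149 to 0.294, or with the replicate number as a block (adjusted p = 0.127). The change with gemcitabine differed by 0.11 ± 0.09 (adjusted p = 0.441).

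**Figure D1:**
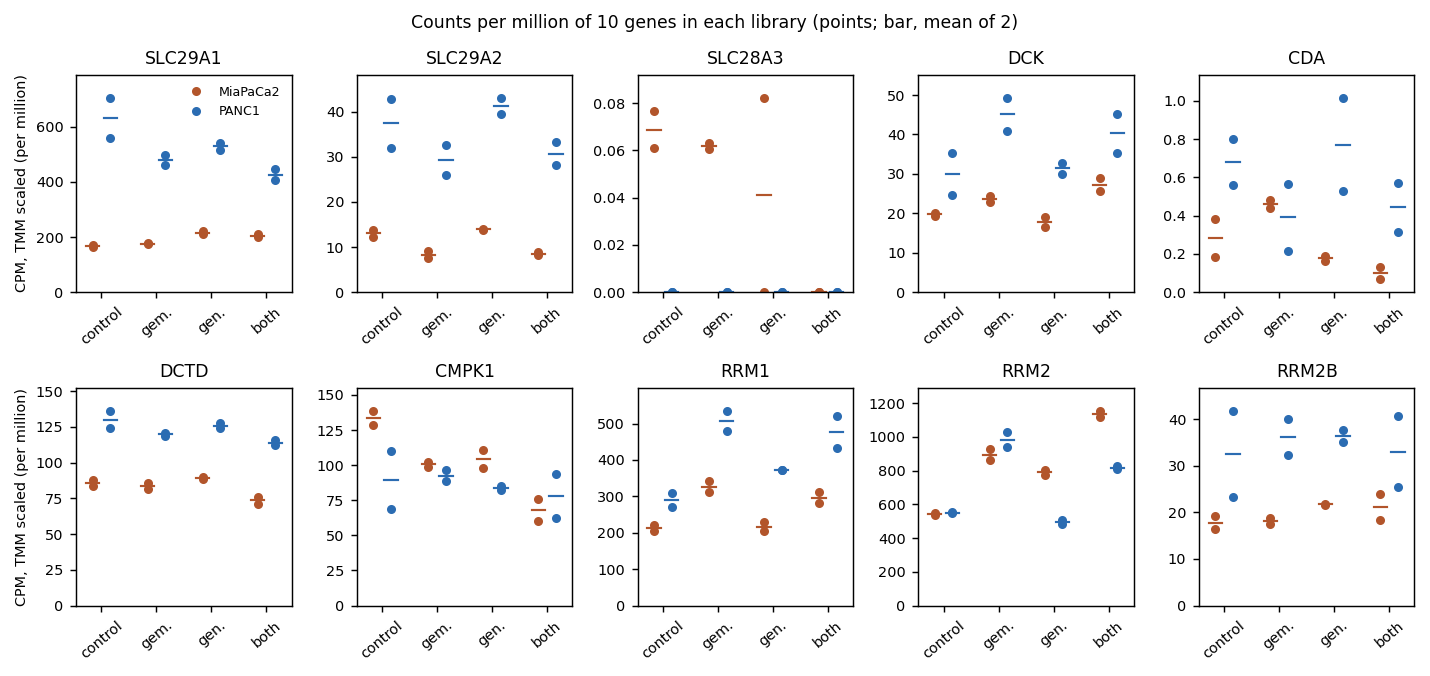
TMM-scaled CPM (vertical axes from 0) of the 10 genes in each of the 16 libraries, by treatment (gem., gemcitabine; gen., genistein); points are libraries and bars means of 2. RRM2 rises in all treated MiaPaCa2 groups to 1153 and 1119 CPM with both drugs, while the PANC1 genistein libraries, at 483 and 504, lie below their controls.

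RRM1 stood at 222 and 205 CPM in the MiaPaCa2 controls, 313 and 341 with gemcitabine, 204 and 229.6 with genistein and 312 and 281 with both drugs. The libraries with gemcitabine, alone or combined, did not overlap those without it. RRM1 rose by 0.56 ± 0.10 (SE; limma adjusted p = 0.000765) with gemcitabine, by 0.41 ± 0.10 with both drugs against the control and by 0.40 ± 0.10 against genistein. The calls with both drugs were lost without replicate 1 of both drugs (0.32 against the control, 0.30 against genistein), without control replicate 2 (0.34) and without genistein replicate 1 (0.30). In PANC1 it stood at 271 and 308 CPM in the controls, 478 and 534 with gemcitabine, 371 and 372 with genistein and 519.5 and 432 with both drugs. It rose by 0.85 ± 0.13 (adjusted p = 0.0102) with gemcitabine and by 0.73 ± 0.13 with both drugs. Without gemcitabine replicate 1 or 2 the RRM1 difference in PANC1 was 0.93 or 0.76 and was not called (adjusted p = 0.0662 and 0.119). The PANC1 genistein libraries also lay above both controls, but the difference of 0.39 ± 0.14 did not pass (adjusted p = 0.189). From genistein to both drugs RRM1 gave 0.33 ± 0.13 in PANC1 (adjusted p = 0.157) and was called after the GC correction (0.44, adjusted p = 0.0011), and both drugs against the control was not called with the 4 libraries alone (adjusted p = 0.0703).

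The ratio of RRM2 to RRM1 counts within a library was 2.47 and 2.61 in the MiaPaCa2 controls, 2.76 and 2.72 with gemcitabine, 3.94 and 3.38 with genistein and 3.69 and 3.98 with both drugs. In PANC1 it was 2.02 and 1.8 in the controls, 1.96 and 1.92 with gemcitabine, 1.3 and 1.36 with genistein and 1.56 and 1.91 with both drugs. In counts the genistein-treated libraries had the highest ratios in MiaPaCa2 and those with genistein alone the lowest in PANC1. In FPKM the groups overlapped, since MiaPaCa2 control replicate 2 (3.07) lay above genistein replicate 2 (2.81) and both drugs replicate 1 (3.04), and PANC1 both drugs replicate 1 (1.27) lay below genistein replicate 2. These ratios are given as a description, since read counts depend on transcript length.

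RRM2B stood at 19.3 and 16.3 CPM in the MiaPaCa2 controls and 17.6 and 18.7 with gemcitabine, with a difference of -0.03 ± 0.15 (SE; limma adjusted p = 0.896). In PANC1 the controls, at 23.2 and 41.7 CPM, spanned both gemcitabine libraries, at 32.3 and 40.1 CPM. No treatment contrast of RRM2B was called in either line. RRM2B has a GC content of 37.5%, and after the GC correction it was called in MiaPaCa2 with genistein (0.54) and with both drugs (0.78). With gemcitabine the corrected MiaPaCa2 difference was 0.39 (limma adjusted p = 0.0109), just under the fold threshold.

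**Figure D2:**
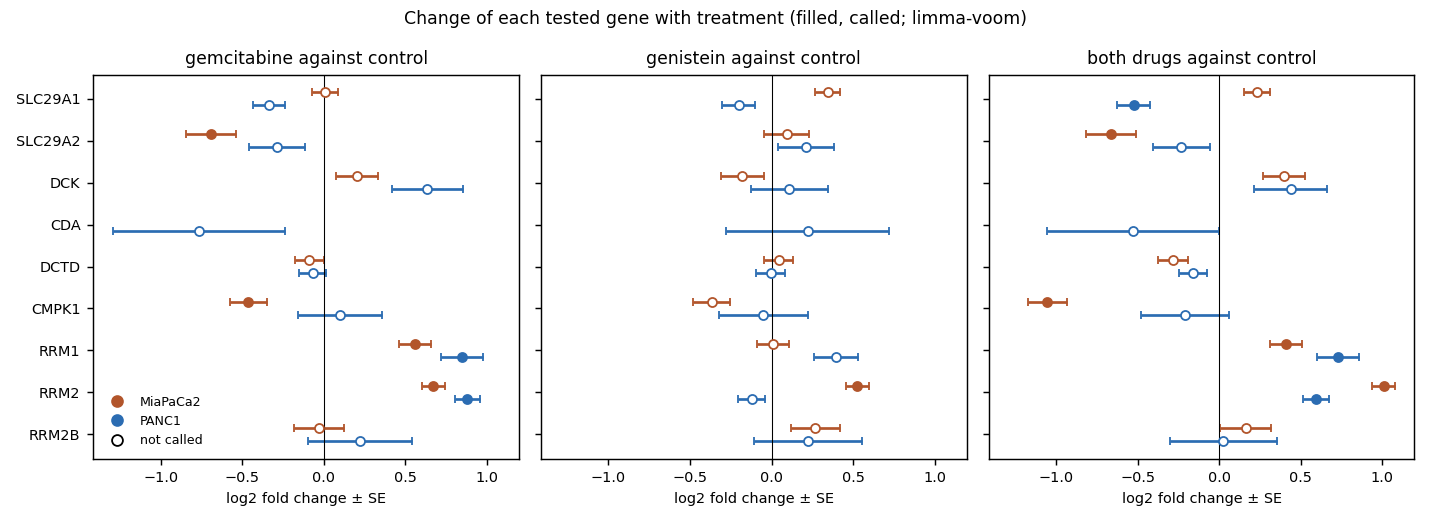
Log2 fold change against the control (horizontal axis, on 1 scale in all panels) with its SE for the tested genes in MiaPaCa2 and PANC1; filled points were called. RRM2 and RRM1 are called with gemcitabine and with both drugs in both lines, and with genistein RRM2 alone is called, at 0.53 in MiaPaCa2.

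Both equilibrative transporters were higher in PANC1 than in MiaPaCa2. SLC29A1, on chromosome 6 (44187290 to 44201879, plus strand), encodes ENT1, the main carrier of gemcitabine. It stood at 164 and 172 CPM in the MiaPaCa2 controls and at 704.5 and 559.6 in the PANC1 controls, a log2 difference of 1.89 ± 0.11 (SE; limma adjusted p = 5.47e-09). In MiaPaCa2 it was at 177 and 173 CPM with gemcitabine, 223 and 209 with genistein and 199.98 and 211 with both drugs. The genistein libraries lay above both controls, and the difference of 0.34 ± 0.08 had an adjusted p of 0.0162 but stayed under the fold threshold.

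In PANC1 every treated library lay below both SLC29A1 controls, with 497 and 460.4 CPM with gemcitabine, 539 and 517 with genistein and 408 and 445 with both drugs. SLC29A1 fell with both drugs by 0.52 ± 0.10 on the log2 scale (SE; limma adjusted p = 0.0107). With library size alone as the scaling the difference was -0.37, under the fold threshold, and with the 4 libraries alone it was -0.53 (adjusted p = 0.0865). Against genistein both drugs gave -0.32 ± 0.11 (adjusted p = 0.0994), which was called after the GC correction (-0.42, adjusted p = 0.00483). The changes with gemcitabine (-0.34 ± 0.10, adjusted p = 0.0719) and genistein (-0.20 ± 0.10, adjusted p = 0.318) did not pass. The difference between the lines in the gemcitabine change, -0.45 ± 0.15, missed the threshold as well (adjusted p = 0.0626). It ran from -0.64 to -0.27 with 1 library left out and was called without PANC1 control replicate 2 (-0.64, adjusted p = 0.00225), by edgeR (adjusted p = 0.044) and by DESeq2 (adjusted p = 0.0242). The difference between the lines in the genistein change, -0.60 ± 0.15 (adjusted p = 0.216), was called by DESeq2 (adjusted p = 0.0176) and without PANC1 control replicate 2 (-0.80, adjusted p = 0.0186).

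SLC29A2, on chromosome 11 (66129992 to 66139685, minus strand), encodes the second equilibrative transporter. In MiaPaCa2 it stood at 12.3 and 13.7 CPM in the controls, 9.07 and 7.61 with gemcitabine, 13.8 and 14.1 with genistein and 8.16 and 8.90 with both drugs. The libraries with gemcitabine did not overlap those without it. SLC29A2 fell by 0.69 ± 0.15 (SE; limma adjusted p = 0.00349) with gemcitabine, by 0.66 ± 0.15 with both drugs against the control and by 0.75 ± 0.15 against genistein. With the GC correction the gemcitabine difference was -1.05. In PANC1, where SLC29A2 was higher than in MiaPaCa2 by 1.49 ± 0.17 (adjusted p = 5.87e-06), the controls at 42.9 and 32.0 CPM overlapped gemcitabine at 32.6 and 26.0 and no contrast was called. After the GC correction SLC29A2 was called in PANC1 with genistein (0.62, adjusted p = 0.0119, beside 0.21 uncorrected) and for both drugs against genistein (-0.73, adjusted p = 0.00202, beside -0.44). A long noncoding RNA gene on the opposite strand, B4GAT1-DT, overlaps 10.3% of the SLC29A2 exon length, and whether counting used strand is not given in the sources used here.

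SLC28A3 had 5 reads in all 8 MiaPaCa2 libraries together and 0 in the 8 PANC1 libraries. A count of 0 allows up to 3 reads, which corresponds to 0.0938 to 0.232 CPM on unscaled library totals, for counting error only. No comparison was made for this gene.

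DCK stood at 20.2 and 19.3 CPM in the MiaPaCa2 controls, 23.0 and 24.3 with gemcitabine, 19.15 and 16.6 with genistein and 28.9 and 25.6 with both drugs. The 4 libraries with gemcitabine lay above the 4 without it. The increase was called from genistein to both drugs (0.58 ± 0.13, SE; limma adjusted p = 0.00326), and not without genistein replicate 2 (0.47, adjusted p = 0.0632). Against the control, both drugs gave 0.40 ± 0.13 (adjusted p = 0.0193), which fell just short of the fold threshold before rounding, and gemcitabine gave 0.20 ± 0.13 (adjusted p = 0.224). The difference with both drugs was called by edgeR (0.40) and DESeq2 (0.42), with DESeq2 size factors (0.41), library size alone (0.47), the replicate number as a block (0.40, adjusted p = 0.0271), the 4 libraries alone (0.40), without replicate 2 of both drugs (0.52) and after the GC correction (0.86, adjusted p = 2.69e-05). In PANC1 the controls stood at 24.6 and 35.2 CPM and gemcitabine at 40.9 and 49.3, a difference of 0.63 ± 0.22 that did not pass (adjusted p = 0.115). It ran from 0.35 to 0.94 with 1 library left out and was called without control replicate 2 (0.94, adjusted p = 0.0307) and with all 16 libraries in one model (0.59, adjusted p = 0.0245). With the GC correction the gemcitabine difference was called in both lines, at 0.54 in MiaPaCa2 and 0.46 in PANC1, and in PANC1 so were both drugs against the control (0.41) and against genistein (0.40). DCK has a GC content of 39.2%.

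CMPK1, on chromosome 1 (47799462 to 47860538, plus strand), stood at 138 and 129 CPM in the MiaPaCa2 controls, 98.9 and 102.4 with gemcitabine, 97.9 and 110.9 with genistein and 75.5 and 60.0 with both drugs. Every treated library lay below both controls, and those with both drugs lay lowest. CMPK1 fell by 0.46 ± 0.11 (SE; limma adjusted p = 0.00682) with gemcitabine, by 1.05 ± 0.12 (adjusted p = 1.61e-05) with both drugs, by 0.59 ± 0.12 from gemcitabine to both drugs and by 0.69 ± 0.12 from genistein to both drugs. CMPK1 has the lowest GC content of the 10 genes, 36.8%. After the GC correction the gemcitabine difference was -0.01 and that with both drugs -0.37, from gemcitabine to both drugs it was -0.37 and from genistein to both drugs -0.33, and none of these was called. The last 3 missed the fold threshold alone, with adjusted p of 0.000413, 0.00349 and 0.00171. The gemcitabine call was also lost without gemcitabine replicate 1 (-0.44) or control replicate 1 (-0.41), and that from gemcitabine to both drugs without replicate 2 of both drugs (-0.39) or either gemcitabine library (-0.61 and -0.57). In PANC1 the controls, at 69.0 and 110.25 CPM, spanned all gemcitabine and genistein libraries.

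**Figure D3:**
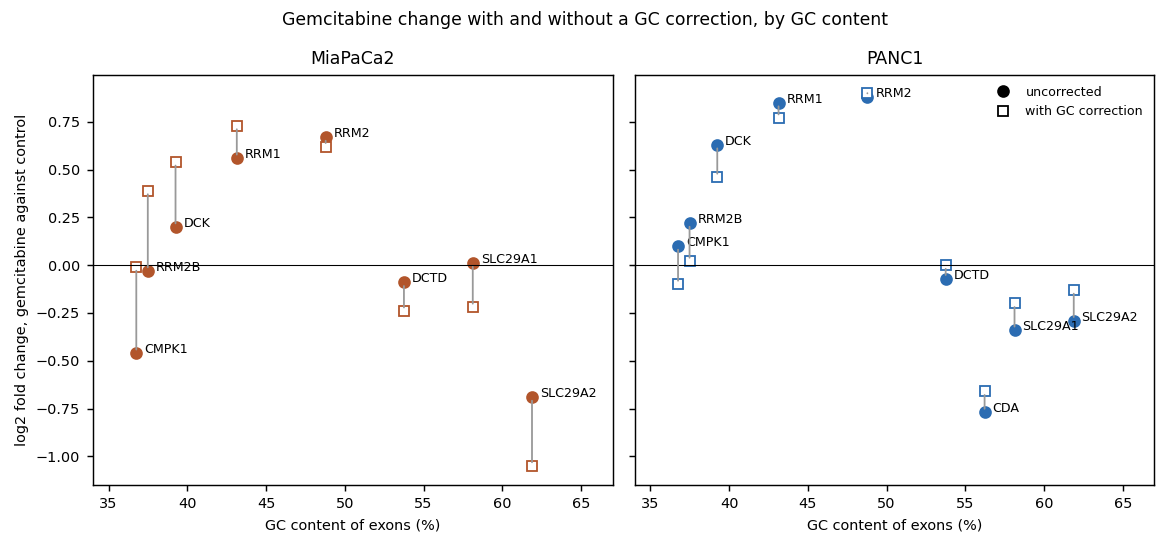
Log2 fold change with gemcitabine against the control (vertical axis) by the GC content of each gene's exons (horizontal axis, %), uncorrected (circles) and with a GC correction (squares), in MiaPaCa2 and PANC1. In MiaPaCa2 CMPK1 moves from -0.46 to -0.01 and SLC29A2 from -0.69 to -1.05, while RRM2 moves from 0.67 to 0.62.

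DCTD, on chromosome 4 (183811213 to 183839089, minus strand), stood at 88.05 and 83.3 CPM in the MiaPaCa2 controls and 71.1 and 75.8 with both drugs, a difference of -0.28 ± 0.09 (SE; limma adjusted p = 0.0194) under the fold threshold, and no treatment contrast was called in either line. After the GC correction DCTD was called in MiaPaCa2 for both drugs against the control (-0.52, adjusted p = 0.000102) and against genistein (-0.43, adjusted p = 0.00054). CDA had 1 to 8 reads in the MiaPaCa2 libraries and 4 to 18 in PANC1. At this depth a change of CDA with treatment was not detectable, and its gemcitabine difference in PANC1 was -0.77 ± 0.53 (adjusted p = 0.401).

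Counted over the members, gemcitabine changed 4 of 8 tested in MiaPaCa2 (2 higher, 2 lower), where 29.6% of all genes tested were called (15.0% higher, 14.6% lower). In PANC1 it changed 2 of 9 (both higher), where 7.52% were called (4.49% higher, 3.03% lower). Genistein changed 1 of 8 in MiaPaCa2 (background 8.31%) and 0 of 9 in PANC1 (background 0.0591%). Both drugs against the control changed 4 of 8 in MiaPaCa2 (background 40.5%) and 3 of 9 in PANC1 (background 17.1%). The MiaPaCa2 shares rest on 8 genes and stand beside a high background. In PANC1 with genistein, RRM1 alone had an unadjusted p under 0.05 (limma), and edgeR and DESeq2 called 0 members.

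Against gemcitabine alone, both drugs changed 1 of 8 in MiaPaCa2 (background 5.88%) and 0 of 9 in PANC1 (background 0.0177%). Against genistein alone they changed 5 of 8 in MiaPaCa2 (background 31.5%) and 1 of 9 in PANC1 (background 8.18%). In PANC1 the comparison with gemcitabine had an unadjusted p under 0.05 for RRM2 alone (limma), and edgeR and DESeq2 called 0 members. These contrasts share libraries with one another. The median log2 fold change of the tested members with gemcitabine was -0.01 in MiaPaCa2 and 0.10 in PANC1, beside -0.01 and 0.03 over all genes. Scaling by library size alone shifted the median of all genes by 0.11 in both lines.

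The gemcitabine by genistein interaction passed for 0 of 8 members in MiaPaCa2 (background 0.0249%) and 0 of 9 in PANC1 (background 0). The limma fit gave an unadjusted p under 0.05 for 0 members in MiaPaCa2 and for RRM1 in PANC1, and edgeR and DESeq2 called 0. The gemcitabine change differed between the lines for 0 of 9 members (background 15.3%), with an unadjusted p under 0.05 for SLC29A1, which edgeR and DESeq2 each called as 1 member. The genistein change differed for 1 of 9, RRM2 (background 0.0336%). A difference that misses the threshold with 2 libraries a group does not show that the responses were alike.

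Between the controls of the lines 7 of 9 members differed, where 52.2% of all genes were called (27.9% higher in PANC1, 24.3% lower). PANC1 was higher for SLC29A1 and SLC29A2 as given above, for RRM2B (0.84 ± 0.27, SE), DCK (0.60 ± 0.18), DCTD (0.59 ± 0.08) and RRM1 (0.44 ± 0.11), and lower for CMPK1 (-0.59 ± 0.20), with limma adjusted p between 5.47e-09 and 0.019. RRM2 differed by 0.02 ± 0.07 (adjusted p = 0.785). With the replicate number as a block DCK (adjusted p = 0.076) and RRM2B (adjusted p = 0.0828) were no longer called. Leaving out 1 control library ended the call of DCK (0.34 without PANC1 replicate 2, 0.59 and 0.57 without either MiaPaCa2 library), of RRM2B (0.40, 0.92 and 0.73 in the same order), of CMPK1 (-0.31 without PANC1 replicate 1, -0.58 without MiaPaCa2 replicate 1) and of RRM1 (0.36 without PANC1 replicate 2, 0.38 without MiaPaCa2 replicate 2).

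By gene FPKM, RRM2 was the most abundant member in the controls of both lines, with 298 ± 2.18 FPKM (SD, n = 2) in MiaPaCa2 and 336 ± 2.72 in PANC1. RRM1 followed in MiaPaCa2 with 119 ± 31.8 FPKM and SLC29A1 in PANC1 with 259 ± 26.4 FPKM. In MiaPaCa2 the retained-intron transcripts ENST00000530368 and ENST00000529109 held medians of 30.4% and 23.6% of the RRM1 FPKM. Over the 8 MiaPaCa2 libraries the protein-coding RRM1 transcript ENST00000300738 ranged from 41.7 to 79.1 FPKM. That range overlapped the SLC29A1 transcript ENST00000371755, at 59.8 to 78.3 FPKM. The protein-coding RRM2 transcript ENST00000304567 lay above both of these ranges in MiaPaCa2, at 119 to 280 FPKM. In PANC1 the place of RRM2 rests on a retained-intron transcript of 573 bases, ENST00000485717. The protein-coding RRM2 transcript ENST00000304567 alone had at most 127 FPKM in the PANC1 controls, below the leading SLC29A1 transcript ENST00000371755 at 186 and 160. CDA, at 0.336 ± 0.12 and 0.896 ± 0.165 FPKM, and SLC28A3 were lowest. In the PANC1 order DCK and SLC29A2, at 14.9 ± 2.21 and 13.3 ± 1.95 FPKM, overlapped. The replicate ranges of all other neighbours in either line did not, with 2 libraries each.

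FPKM and counts parted for DCK and RRM2B. In the MiaPaCa2 genistein libraries DCK had 233 and 351 reads but 47.0 and 6.07 FPKM, and in the gemcitabine libraries RRM2B had 291 and 297 reads but 32.4 and 9.64 FPKM. Replicates of a group differed by up to 7.74-fold in FPKM and 1.43-fold in CPM for DCK, and by up to 3.36-fold and 1.8-fold for RRM2B. The isoform table gave the DCK FPKM largely to a retained-intron transcript of 183 bases, ENST00000509764, which ranged from near 0 to 40.8 FPKM in MiaPaCa2. For RRM2B a transcript of 201 bases, ENST00000519962, held a median of 69.8% of the gene's FPKM in MiaPaCa2. Treatment changes of these genes were therefore read from counts.

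**Figure D4:**
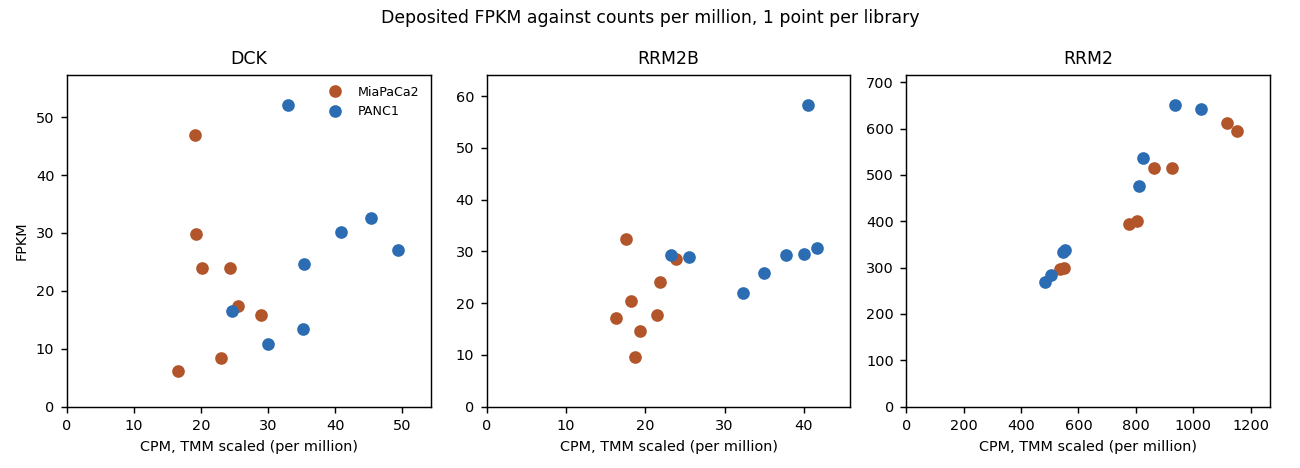
Deposited FPKM (vertical axis) against TMM-scaled CPM (horizontal axis) for DCK, RRM2B and RRM2, 1 point per library. RRM2 FPKM broadly rises with CPM but not along a single line. PANC1 gemcitabine replicate 1 has 651 FPKM at 937 CPM, and MiaPaCa2 both drugs replicate 1 has 594 FPKM at 1153 CPM. DCK reaches 47.0 FPKM in a MiaPaCa2 library with 19.15 CPM.

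For RRM2 the retained-intron transcript ENST00000485717 and the protein-coding ENST00000304567 held medians of 54.0% and 41.1% of the FPKM in MiaPaCa2, and 54.6% and 39.4% in PANC1. SLC29A1 was mostly ENST00000371755, whose median share was 86.0% of the FPKM in MiaPaCa2 and 67.3% in PANC1. A second SLC29A1 transcript, ENST00000427851, was at 21.0 to 60.6 FPKM in PANC1 and at most 4.94 in MiaPaCa2. The leading transcripts by mean FPKM in PANC1 were ENST00000450808 for CMPK1, ENST00000357067 for DCTD, ENST00000300738 for RRM1 and, for SLC29A2, ENST00000541567, annotated as a target of nonsense-mediated decay. Reads of RRM2 can be shared with its pseudogenes: RRM2P3 had 3.4% to 4.59% and RRM2P2 0.999% to 1.43% as many reads as RRM2.

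Genes around the pathway were described from lists, without the GC correction. Of 12 G1/S genes, 6 rose with gemcitabine in MiaPaCa2 and 7 in PANC1, and none fell, where 15.0% and 4.49% of all genes tested rose. The medians of the tested genes were 0.46 and 0.72, beside -0.01 and 0.03 over all genes. Both lines had CCNE1 (0.81 and 1.04), which encodes cyclin E1, MCM2 (0.54 and 0.74), a subunit of the replicative helicase, and CDC6 (0.55 and 1.36), a replication licensing factor, among them. Of 12 G2/M genes, 9 fell in MiaPaCa2 and 4 in PANC1 (background 14.6% and 3.03% lower), including the mitotic kinase gene PLK1 (-0.85 and -1.22) and the cyclin gene CCNB1 (-0.82 and -0.89). Of 10 p53 target genes, 5 rose in MiaPaCa2 (background 15.0% higher), led by the cell-cycle inhibitor CDKN1A (3.07), and 0 passed in PANC1 (background 7.52% in either direction). RRM2B, itself a p53 target, was not called with gemcitabine in either line. The list is named for known targets, and whether p53 acted on these genes here was not tested.

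Within nucleotide metabolism, TK1, the cytosolic thymidine kinase, rose with gemcitabine in MiaPaCa2 (0.95) and with both drugs in both lines (1.53 and 0.99). It was 1 of 2 among 8 tested salvage kinases that rose with gemcitabine in MiaPaCa2 (background 15.0% higher), with the uridine-cytidine kinase gene UCK1 (0.85). In PANC1 0 of these 8 passed with gemcitabine. With both drugs 2 of the 8 rose and 1 fell in MiaPaCa2 (background 40.5% in either direction). In PANC1 1 rose and 1 fell with both drugs (background 17.1% in either direction). Of 5 genes of de novo pyrimidine synthesis, DHODH alone was called, and fell by 1.21, with gemcitabine in MiaPaCa2 (background 14.6% lower), and 0 passed in PANC1. The further equilibrative transporter genes SLC29A3 (0.52) and SLC29A4 (1.14) rose in MiaPaCa2 (background 15.0% higher) while SLC29A2 fell, and neither passed in PANC1. The PANC1 background was 7.52% in either direction, and all these shares rest on few genes. Of the 8 tested nucleotidases and nucleotide hydrolases, NT5M rose (0.84) and NT5C3A fell (-0.59) with gemcitabine in MiaPaCa2, a share near the background of 15.0% higher and 14.6% lower, and 0 passed in PANC1.

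**Figure D5:**
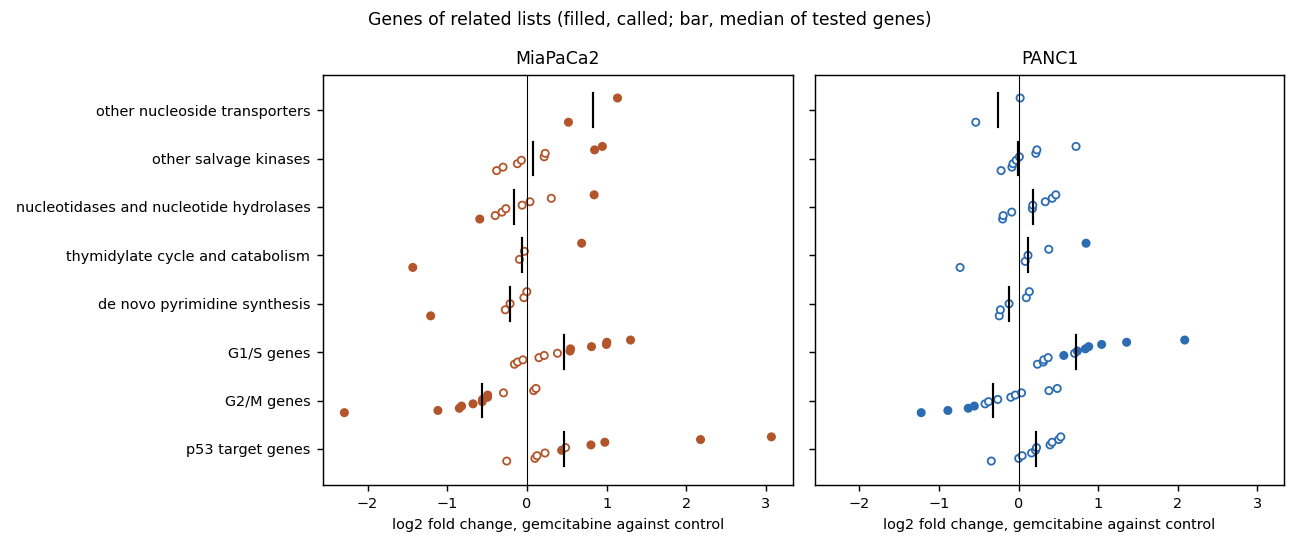
Log2 fold change with gemcitabine against the control (horizontal axis, same scale in both panels) for the tested genes of 8 lists in MiaPaCa2 and PANC1; filled points were called and bars are medians. G1/S genes have medians of 0.46 and 0.72 and G2/M genes of -0.56 and -0.32.

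The genes whose levels moved most like each member were ranked by Pearson's r over the 16 libraries after centring on the line means, as a description. The libraries share treatment, depth and GC differences. For RRM2 they were its pseudogenes RRM2P2 (0.965) and RRM2P3 (0.958), which share sequence with it. For RRM1 they were KLHL23 (0.973) and RRAGD (0.965), for CMPK1 PGAP1 (0.981) and RAB18 (0.978), and for SLC29A1 ATXN7L3 (0.961) and CDC25B (0.955). For SLC29A2 they were GTF3C2 (0.956) and MARS (0.953), for DCK FAM111A (0.943) and C14orf142 (0.942), for RRM2B PTPLB (0.941) and SGPP1 (0.915), for DCTD ZBTB4 (0.931) and CCT3 (0.923), and for CDA, at few reads, RP11-274J15.2 (0.819) and SUSD1 (0.776).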

How the data were processed

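RNA was sequenced from 16 libraries, 2 for each of 8 groups. The authors mapped the reads to GRCh37 with TopHat 2.0.4, removed reads with several alignments with Picard 1.29, counted reads per gene with HTSeq 0.6.1 and computed gene and isoform FPKM with Cufflinks 2.1.1. The deposited counts are whole reads per gene without normalization, and the deposited FPKM are per length and depth. The annotation release and strand setting of the counting are not given in the sources used here. Exon length, GC content and overlaps came from GENCODE release 44 lifted to GRCh37, and promoters from RefSeq GRCh38.p14.

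Counts were filtered by filterByExpr, scaled by TMM and fitted with limma-voom (limma 3.58.1, edgeR 4.0.16, R 4.3.3), with the 8 libraries of a line in one model and all 16 for comparisons between lines. The interaction and the differences in response were called by adjusted p alone. P-values were adjusted by Benjamini-Hochberg over all genes tested and measure only the spread between these libraries. Alternatives were edgeR's quasi-likelihood test, DESeq2 1.42.0, other scalings, limma-trend on log2(FPKM + 1) and log2(FPKM + 0.1), no filter, a GC correction (loess, span 0.3), the replicate number as a block, other sets of libraries, and leaving out each library. The members and gene lists were chosen with earlier results of these data known. All 10 members, the 2 genes most like each tested member and the leading isoforms of members above 1 FPKM were named. List genes were named as examples. A gene of the lists is not reported here, and the genes listed with it are not described.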

Additional observations from a re-analysis of the deposited data

Results flagged for a closer look

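The change of RRM2 with genistein differed between the lines by -0.70 on the log2 scale (PANC1 minus MiaPaCa2), with a limma adjusted p of 0.0279. This call was lost in limma with the replicate number as a block (adjusted p = 0.127) and with library size alone (adjusted p = 0.0699). It was also lost with limma-trend on log2(FPKM + 1) (adjusted p = 0.0547). Leaving out any MiaPaCa2 control, MiaPaCa2 genistein or PANC1 genistein library ended it as well. The RRM2 libraries with genistein lay above both controls in MiaPaCa2 and below both controls in PANC1. In PANC1 that difference, -0.12 ± 0.08 (SE), did not pass (limma adjusted p = 0.469). The groups held 2 libraries each, so no library was tested as standing apart from its group.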

How the results depend on the processing

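Of 1129 member results under alternatives other than a left-out library, 1024 kept direction and call, 36 gained and 28 lost a call, and 41 turned direction. With 1 library left out, 403 of 472 kept both and 34 turned. These totals leave out the adjusted p alone and limma-trend on log2(FPKM + 0.1). For the interaction and the responses between the lines they cover SLC29A1, RRM1 and RRM2 only. Of 29 called results, 16 held in every alternative so counted other than a left-out library. Among these, the calls of RRM2 against the control held also with each library left out. Where no cause is shown by a value, the cause was not tested.

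The number of members called moved as follows. With limma-trend on log2(FPKM + 1), and equally with 0.1, it was 2 for gemcitabine in MiaPaCa2, 0 for both drugs against gemcitabine, 2 against genistein, 0 for the genistein response between the lines and 4 between the controls. With 1 added it was 2 for both drugs against genistein in PANC1. The adjusted p alone gave 2 with genistein, 7 with both drugs and 2 for both drugs against gemcitabine in MiaPaCa2. With the GC correction, the MiaPaCa2 counts were 2 with genistein and 0 for both drugs against gemcitabine, and the PANC1 counts 1 with genistein and 5 for both drugs against genistein, with 1 for the gemcitabine response between the lines. All 16 libraries in one model gave 0 for both drugs against gemcitabine in MiaPaCa2, and only the 4 libraries compared gave 1 for both drugs against the control in PANC1. For the gemcitabine response between the lines edgeR and DESeq2 gave 1 each, and for the genistein response DESeq2 gave 2 and library size alone 0. With 1 library left out the counts ran from 0 to 1 for both drugs against gemcitabine in MiaPaCa2 and against genistein in PANC1 (0 without either genistein library), from 1 (without either gemcitabine library) to 4 (without control replicate 2) for gemcitabine in PANC1, from 0 to 2 for either response between the lines, and from 4 to 6 between the controls. Replicates were over 1.5 times apart in 8 of 64 member and group pairs in FPKM and in 4 in CPM.

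The replicate numbers did not pair the samples. Same-numbered deviations correlated from -0.257 to 0.128 in MiaPaCa2 and -0.508 to 0.259 in PANC1. With the replicate block the members called were 5 of 8 with both drugs in MiaPaCa2, 5 between the controls, and 0 for the genistein response between the lines. The block with the GC correction gave 2 with genistein and 0 for both drugs against gemcitabine in MiaPaCa2, 1 with genistein and 4 for both drugs against genistein in PANC1, and 1 for the gemcitabine response. With the block RRM2 between the controls was -0.01, with or without the GC correction.

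Directions turned only for uncalled results, except DCK under FPKM. With the GC correction, SLC29A1 was -0.22 with gemcitabine and -0.05 with both drugs in MiaPaCa2, RRM2B 0.39 with gemcitabine and 0.24 for both drugs against genistein, DCTD -0.08 with genistein, and in PANC1 CMPK1 -0.10 with gemcitabine, RRM2B 0.03 for both drugs against gemcitabine and SLC29A1 -0.21 for the interaction, with RRM1 -0.04 for the gemcitabine response between lines. Adding the block gave the same values except DCTD -0.09 and RRM2B 0.23 and 0.02. With library size alone DCTD was 0.02 and RRM2B 0.08 with gemcitabine and RRM1 -0.03 with genistein in MiaPaCa2, and DCTD 0.04 with gemcitabine and 0.01 with genistein in PANC1. All 16 libraries in one model gave 0.02 for RRM2B with gemcitabine in MiaPaCa2. On log2(FPKM + 1) DCK was -0.85 with gemcitabine, -0.66 with both drugs and -0.07 for both drugs against genistein in MiaPaCa2 and -0.81 between the controls. DCTD was 0.13 and RRM2B 0.16 with gemcitabine, and RRM2B 0.22 for both drugs against genistein, in MiaPaCa2. In PANC1 it gave DCTD 0.05 and RRM2B -0.23 with gemcitabine, RRM2B -0.12 with genistein, RRM1 0.10 and RRM2B 0.67 for both drugs against gemcitabine, and DCTD 0.13, CMPK1 0.05 and RRM2B 0.57 against genistein.

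With 1 library left out, these uncalled results ran through 0. In PANC1 with gemcitabine, CMPK1 ran from -0.26 to 0.49 and RRM2B from -0.21 to 0.70. With genistein there, SLC29A2 ran from -0.02 to 0.33, DCK from -0.20 to 0.38, CDA from -0.27 to 0.64, CMPK1 from -0.43 to 0.31 and RRM2B from -0.24 to 0.68. With both drugs against the control, CMPK1 ran from -0.57 to 0.17 and RRM2B from -0.42 to 0.50. Against gemcitabine, SLC29A2 ran from -0.11 to 0.20, CDA from -0.39 to 0.91, CMPK1 from -0.61 to 0.01, RRM1 from -0.27 to 0.03 and RRM2B from -0.54 to 0.16, and against genistein, CMPK1 from -0.46 to 0.16 and RRM2B from -0.54 to 0.16. The SLC29A1 interaction ran from -0.07 to 0.19. In MiaPaCa2, SLC29A1 ran from -0.03 to 0.03 and RRM2B from -0.15 to 0.10 with gemcitabine, RRM1 from -0.09 to 0.11 with genistein and RRM2B from -0.05 to 0.39 with both drugs. Against gemcitabine, SLC29A2 ran from -0.09 to 0.16 and RRM2B from -0.01 to 0.42, and against genistein RRM2B from -0.32 to 0.13.

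Over all genes, the GC correction raised the calls in PANC1 from 1272 to 2986 with gemcitabine and from 10 to 1210 with genistein, and leaving out PANC1 gemcitabine replicate 2 lowered the former to 64. For both drugs in PANC1 only the 4 libraries compared gave 574 calls in place of 2897. With library size alone, the share of higher calls with gemcitabine was 66.5% in place of 50.6% in MiaPaCa2 and 78.6% in place of 59.7% in PANC1. Depth limited CDA and SLC28A3.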
